A study of Homo sapiens with 4 samples.

Results

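ATF4 is the transcription factor at the end of the integrated stress response, in which kinases that sense amino acid shortage, unfolded protein or other stresses phosphorylate the translation factor eIF2, general protein synthesis slows and the ATF4 message is translated more. ATF4 and its C/EBP partners then bind genes for amino acid uptake, for the synthesis of serine, asparagine and proline, and for the enzymes that load tRNAs with amino acids. The program described here is a list of 36 of the 33538 genes in the deposited tables, given by symbol. The list was chosen with earlier results of these data known, so that it is not independent of them. It holds 5 transcription factors, 6 stress effectors, 9 enzymes of amino acid and one-carbon synthesis, 4 amino acid transporters or transporter subunits, and 12 cytosolic aminoacyl-tRNA synthetases.

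To determine how this program differed between enzalutamide-sensitive and enzalutamide-resistant cells, single-cell RNA-seq libraries of 4 groups were compared, all from LNCaP, a human prostate cancer cell line that depends on the androgen receptor. LNCaP cells were given 0.1% DMSO, the vehicle, for 48 h, and LNCaP-ENZ48 cells were given 10 µM enzalutamide, an androgen receptor antagonist, for 48 h. RES-A cells had been passaged in rising enzalutamide and RES-B cells had been kept in RD-162, a related antagonist, and both lines were held in 10 µM enzalutamide. All 4 groups were sorted for living cells and grown in medium with a glutamine dipeptide, and each resistant line is a single derived line. Each group is 1 library, so that group and library cannot be told apart, no value has a replicate and no test between groups was possible. Intervals of levels and ratios are 95% intervals that cover counting error only. Intervals of a median over genes are order-statistic intervals over those genes, which are not replicates, and they hold no counting error. Every comparison with LNCaP shares its 1 library.

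After the filters, 14727 of 17233 deposited barcodes remained, 1782 in LNCaP and 4061 to 4569 in the other libraries, with 50208831 to 60838227 UMIs per library. The LNCaP cells were deeper, at a median of 27079.5 UMIs against 12138 to 13676, and 35 barcode sequences occurred in more than 1 of the deposited libraries. KLK3, the androgen-driven gene for prostate-specific antigen, was at 718 CPM (UMIs of a gene scaled to a library total of 1000000) in LNCaP and 94.97 in LNCaP-ENZ48, against 0.0349 in RES-A and 30.5 in RES-B. Summed markers of basal, fibroblast, leukocyte and endothelial cells stayed at or below 3.59 CPM per list in every library. Cells called G1 made up 72.2% of LNCaP and 82.9% of LNCaP-ENZ48, against 68.4% of RES-A and 74.7% of RES-B.

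The ATF4 and C/EBP composite element, called the amino acid response element, has the core TGATGNAA. Either strand of the 300-base windows that RefSeq gives around annotated starts (250 bases before to 50 after, build GRCh38.p14) was searched for these 8 letters or for the reverse complement TTNCATCA. Of the 31 members with a window, 13 held a match, or 41.9%, against 4.46% of the 27305 genes and 3.62% of the 35116 windows in the table. The synthetases held most of these matches, at 7 of the 10 with a window, so that their stretches are shown with those of 3 other members, with the motif in capitals.
AARS: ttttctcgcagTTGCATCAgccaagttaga
CARS: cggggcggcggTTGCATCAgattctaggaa
GARS: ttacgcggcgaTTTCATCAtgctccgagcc
IARS: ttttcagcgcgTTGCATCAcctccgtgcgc
MARS: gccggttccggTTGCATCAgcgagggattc
NARS: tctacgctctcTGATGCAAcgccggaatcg
TARS: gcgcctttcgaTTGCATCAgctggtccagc
SLC1A5: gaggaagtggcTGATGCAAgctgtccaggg
ATF3: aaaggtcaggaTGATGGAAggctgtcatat
ASNS: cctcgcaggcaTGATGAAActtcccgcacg

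Read on either strand, 6 of the 7 synthetase matches had the letters TGATGCAA, which the SLC1A5 match shared, while GARS and ASNS had TGATGAAA and ATF3 had TGATGGAA. The stretches lie at chr16:70289675-70289704 for AARS, chr11:3057407-3057436 for CARS, chr9:92293692-92293721 for IARS, chr18:57621804-57621833 for NARS, chr19:46784893-46784922 for SLC1A5 and chr7:97872458-97872487 for ASNS, all on the minus strand. Those of the plus strand lie at chr7:30594834-30594863 for GARS, chr12:57488053-57488082 for MARS, chr5:33440956-33440985 for TARS and chr1:212565205-212565234 for ATF3. Counted from the nearest RefSeq start, the match began at position -187 in AARS, -97 in SLC1A5 and -191 in ATF3, and between -68 and 15 in the other 7. In GENCODE 44 the ATF3 match lay 111 bases outside the gene, and the others shown overlapped a non-coding exon of at least 1 transcript, in CARS, MARS, NARS and TARS that of the canonical transcript. CEBPG, CHAC1 and SLC3A2 held the remaining matches, the last in a coding exon. Outside the program, 0 of 6 other cytosolic synthetases, 1 of 14 mitochondrial synthetases, 0 of 11 endoplasmic reticulum chaperones and 3 of 13 other reported ATF4 targets held a match. A match is a description of letters and not of binding, and a window without one says nothing about ATF4.

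All 36 members were counted in all 4 libraries, and 34 reached 10 CPM in at least 1 library, VLDLR and SLC7A5 being the exceptions. The median member stood at 126 CPM in LNCaP and 102 in LNCaP-ENZ48, against 79.7 in RES-A and 98.9 in RES-B. LNCaP was the highest of the 4 libraries for 19 members, RES-B for 12, RES-A for 4 and LNCaP-ENZ48 for 1, whereas RES-A was the lowest for 20 members. Summed over the 36 members, the level was 5100 CPM in LNCaP and 4563 in LNCaP-ENZ48, against 4389 in RES-A and 4814 in RES-B. UMIs were counted at the 3' end and were not divided by length, so that levels are compared between libraries and not between genes.

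**Figure D1:**
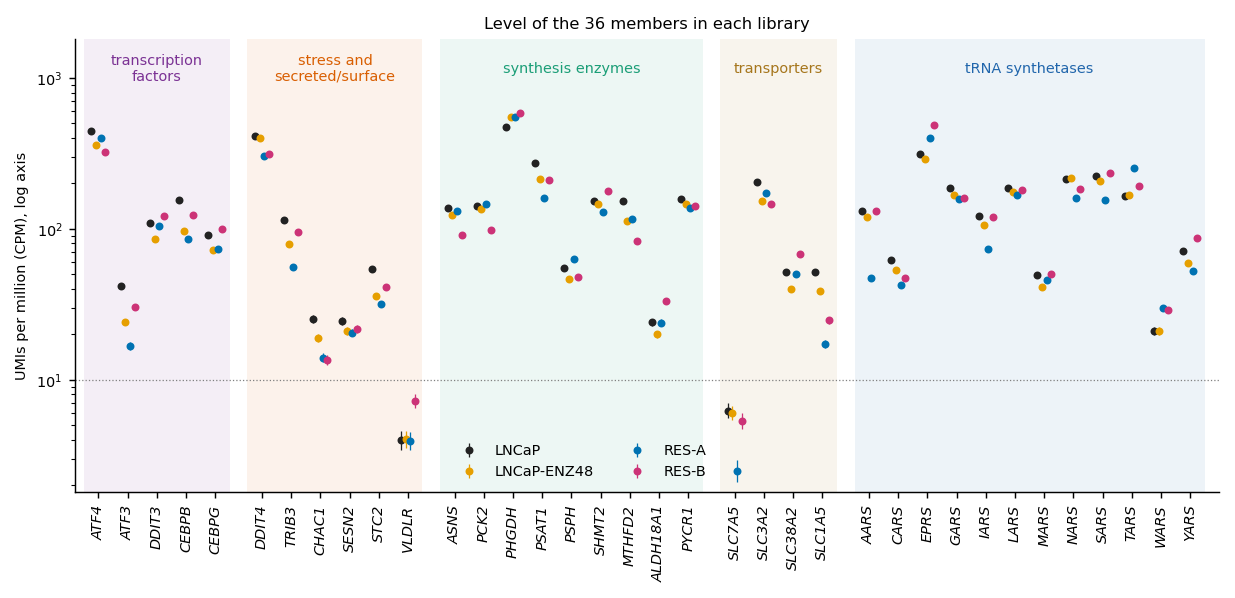
Level of each of the 36 members in each library in CPM on a log axis, with members ordered by role, 1 point per library, 95% counting intervals as bars and a dotted line at 10 CPM. The points of most members lie close together, and RES-A is lowest for 20 members, with AARS, SLC1A5, ATF3 and TRIB3 among those where it stands apart.

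To follow the short exposure, LNCaP-ENZ48 was set against LNCaP, and a member was counted as higher or lower when its CPM differed by at least 1.5-fold and reached 10 CPM in at least 1 of both libraries. After 48 h of enzalutamide, 0 members were higher and 3 were lower, which were ATF3, CEBPB and STC2. The 3 were 8.82% of the 34, against 3.73% of all 7554 genes that were lower and 0.927% that were higher. The median log2 ratio over the 34 members was -0.23, with an order-statistic interval from -0.34 to -0.10, and 31 of the 34 lay below 0 and 3 above, against 35.6% of all genes above. With TMM scaling 26 members lay below 0 and with DESeq2 size factors 24, as small ratios such as those of DDIT4, PCK2, SHMT2, LARS and WARS changed sign. Over the 7459 genes whose mean reached 10 CPM the median was -0.07. Within cells called G1 the count of lower members was 0, with ATF3 at -0.52. STC2 also lost its call with 1 filter for all libraries, without the 5% of cells with most UMIs, after thinning to 5000 UMIs per cell and under either scaling, and CEBPB lost it under DESeq2 size factors.

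In RES-A against LNCaP, 1 member was higher and 9 were lower. The 9 were 26.5% of the 34, against 12.7% of all 7975 genes lower, and the 1, TARS, was 2.94%, against 12.9% higher. Besides ATF3, CEBPB and STC2, the members lower in RES-A were TRIB3, CHAC1, PSAT1, SLC1A5, AARS and IARS. The median was -0.26, with an interval from -0.53 to -0.11, against 0.02 over all genes, with 6 members above 0, against 51.7% of all genes. TARS no longer passed 1.5-fold after thinning to 5000 UMIs per cell or under TMM scaling, and CARS became a further lower member after thinning and under either scaling.

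In RES-B against LNCaP, 1 member was higher and 4 were lower, and the median was -0.19, with an interval from -0.40 to 0.07, against 0.11 over all genes. The 4 lower members, CHAC1, ASNS, MTHFD2 and SLC1A5, were 11.8% of the 34, against 9.11% of all 8090 genes lower, and EPRS was the 1 higher, against 15.6% higher. EPRS did not pass 1.5-fold in G1 cells or under TMM or DESeq2 scaling. ASNS did not pass it with 1 filter for all libraries or after thinning, and PCK2 passed as lower in G1 cells, after thinning and under either scaling. The share of members lower by 1.5-fold in RES-B was close to the background, whereas 13 of the 34 members lay above 0, against 60.6% of all genes.

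The resistant lines were also set against each other, a comparison that does not use the LNCaP library. In RES-B over RES-A, 6 members were higher, which were ATF3, TRIB3, AARS, IARS, SARS and YARS, and 0 were lower. The 6 were 17.6% of the 34, against 12.9% of all 7954 genes higher and 6.71% lower. The median was 0.17, with an interval from 0.05 to 0.44, against 0.09 over all genes, and 25 members lay above 0, against 59.1% of all genes. SARS lost its call in G1 cells, without the 5% of cells with most UMIs and under either scaling. The count of lower members was 1 with all barcodes or with 1 filter, 2 under either scaling and 3 in G1 cells, where PCK2, ASNS and MTHFD2 passed, so that a count of 0 in that direction was not firm.

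**Figure D2:**
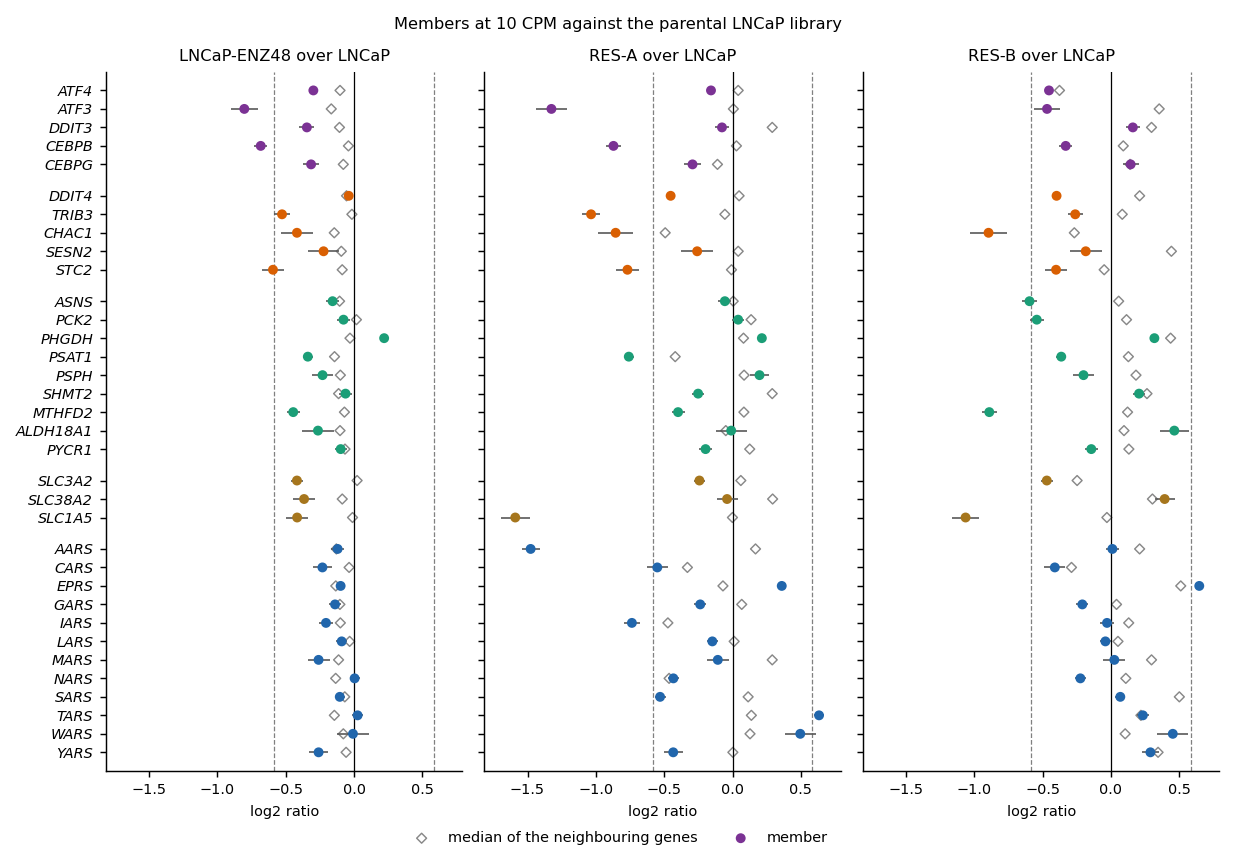
Log2 CPM ratio to LNCaP of the 34 members at 10 CPM in LNCaP-ENZ48, RES-A and RES-B, as points coloured by role with 95% counting intervals, beside the median of the nearest genes on the chromosome as open diamonds and with dashed lines at 1.5-fold. The leftward points in RES-A include SLC1A5 at -1.59, AARS at -1.48, ATF3 at -1.33 and TRIB3 at -1.04, whose neighbours lie between -0.06 and 0.17.

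Among the transcription factors, ATF4 itself (ENSG00000128272, chr22:39519695-39522683 on the plus strand) was at 444 CPM in LNCaP, with an interval from 438 to 449. It was at 361 CPM in LNCaP-ENZ48, and at 398 and 324 CPM in RES-A and RES-B, with log2 ratios to LNCaP of -0.30, -0.16 and -0.45. LNCaP was the highest of the 4 for the ATF4 message and no ratio reached 1.5-fold. The median log2 ratio in RES-B of the 50 genes nearest to ATF4 on the chromosome was -0.38, close to its own -0.45.

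ATF3 (ENSG00000162772, chr1:212565334-212620777 on the plus strand), a stress-induced factor that ATF4 activates, was at 42.0 CPM in LNCaP and 24.1 in LNCaP-ENZ48, against 16.8 in RES-A and 30.4 in RES-B. It was lower by 1.74-fold in LNCaP-ENZ48, with a log2 ratio of -0.80 (-0.90 to -0.71), and by 2.51-fold in RES-A, at -1.33 (-1.44 to -1.21). In RES-B it was 1.38-fold below LNCaP and 1.81-fold above RES-A, and the 4 intervals of its level did not overlap. Its 50 neighbours had a median of 0.01 in RES-A, and of 0.46 for RES-B over RES-A, beside its own 0.86. In RES-B the ATF3 UMIs were also the most uneven over cells, with a variance of 3.93 times the mean after thinning each cell to 5000 UMIs, against 1.14 to 1.53 in the other libraries. CEBPB, a C/EBP factor that ATF4 can pair with, was at 156 CPM in LNCaP and 97.3 in LNCaP-ENZ48, against 85.4 in RES-A and 124 in RES-B. It was lower by 1.61-fold and 1.83-fold in LNCaP-ENZ48 and RES-A. DDIT3, which encodes the death-associated factor CHOP, went another way and stood highest in RES-B, at 122 CPM against 110 in LNCaP, 104 in RES-A and 86.2 in LNCaP-ENZ48. Its log2 ratio in RES-B was 0.16, beside a neighbour median of 0.30, and its ratio of -0.35 in LNCaP-ENZ48 became 0.02 in G1 cells. CEBPG, a dimer partner of ATF4, was likewise highest in RES-B, at 100 CPM against 72.9 to 90.6. Its ratio there was 0.14, as was its neighbour median. DDIT3 and MARS overlap by 982 bases at their 3' ends on opposite strands, where their reads are told apart by strand alone.

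The stress effectors had the lowest median of the roles in RES-A, at -0.77 over the members whose mean reached 10 CPM, with medians of -0.42 in LNCaP-ENZ48 and -0.40 in RES-B. TRIB3 (ENSG00000101255, chr20:362835-397559 on the plus strand), a pseudokinase that feeds back on ATF4, was at 114 CPM in LNCaP and 79.4 in LNCaP-ENZ48, against 55.8 in RES-A and 95.4 in RES-B. It was 2.05-fold lower in RES-A, at -1.04 (-1.10 to -0.97), and 1.71-fold above RES-A in RES-B, while its ratios of -0.53 in LNCaP-ENZ48 and -0.26 in RES-B stayed within 1.5-fold. TRIB3 therefore followed the order of ATF3, with LNCaP highest, RES-B next and RES-A lowest. CHAC1, an enzyme that degrades glutathione, was at 25.3 CPM in LNCaP and 18.9 in LNCaP-ENZ48, against 13.97 in RES-A and 13.6 in RES-B, and was similarly low in both resistant lines, at -0.86 and -0.90, where its neighbours had medians of -0.49 and -0.27. STC2, a secreted glycoprotein, was 1.51-fold lower in LNCaP-ENZ48, at the edge of the 1.5-fold limit, and SESN2 and DDIT4, both restraints on mTORC1, stayed within 1.5-fold in all comparisons. VLDLR, a lipoprotein receptor, was low throughout, at 3.94 to 4.03 CPM in 3 libraries and 7.25 in RES-B.

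The synthesis enzymes differed little in summed level, at 1565 CPM in LNCaP and 1495 in LNCaP-ENZ48, against 1455 in RES-A and 1470 in RES-B, but single enzymes differed more. PHGDH, the entry enzyme of serine synthesis, was at 472 CPM in LNCaP and 549 in LNCaP-ENZ48, against 547 in RES-A and 588 in RES-B, and thus higher in all 3 enzalutamide-treated libraries, within 1.5-fold. Its ratios were 0.22, 0.21 and 0.32 in LNCaP-ENZ48, RES-A and RES-B, beside neighbour medians of -0.03, 0.08 and 0.44. PSAT1, the next enzyme of the same path, was at 272 CPM in LNCaP and 215 in LNCaP-ENZ48, against 161 in RES-A and 211 in RES-B. PSAT1 was lower by 1.69-fold in RES-A, at -0.76 (-0.80 to -0.72), where its 50 neighbouring genes had a median of -0.42. Consecutive steps of serine synthesis thus differed from LNCaP in opposite directions, and PSPH, the last step, stayed within 1.5-fold at 46.6 to 62.8 CPM.

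ASNS, which makes asparagine and is a textbook ATF4 target, was at 137 CPM in LNCaP and 123 in LNCaP-ENZ48, against 132 in RES-A and 90.9 in RES-B. RES-B alone stood low, 1.51-fold below LNCaP at -0.60 (-0.65 to -0.54), and between -0.70 and -0.56 over the alternatives, the last of them within 1.5-fold. MTHFD2, a mitochondrial folate enzyme, was at 153 CPM in LNCaP and 112 in LNCaP-ENZ48, against 116 in RES-A and 82.6 in RES-B, 1.85-fold lower in RES-B. PCK2, mitochondrial phosphoenolpyruvate carboxykinase, was likewise lowest in RES-B, at 97.6 CPM against 135 to 146 in the others. SHMT2, which passes a carbon unit from serine to folate in mitochondria, was instead highest in RES-B, at 177 CPM against 129 to 153. Its log2 ratio there was 0.21, beside a neighbour median of 0.26. The proline enzymes differed as well, with ALDH18A1 at 33.1 CPM in RES-B against 19.99 to 24.0 and PYCR1 between 137 and 157 in all 4. PYCR1 overlaps MYADML2 on the same strand, and MYADML2 had at most 52 UMIs in any library.

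SLC1A5 (ENSG00000105281, chr19:46774883-46788594 on the minus strand), the main glutamine importer of many cancer cells, had the lowest ratio of any member in both resistant lines. It was at 51.7 CPM in LNCaP (49.7 to 53.7) and 38.7 in LNCaP-ENZ48 (37.2 to 40.3), against 17.2 in RES-A (16.1 to 18.3) and 24.7 in RES-B (23.4 to 26.1). No intervals overlapped, and LNCaP-ENZ48 lay between the resistant lines and LNCaP. SLC1A5 was lower by 1.33-fold in LNCaP-ENZ48, 3.01-fold in RES-A, at -1.59 (-1.70 to -1.48), and 2.09-fold in RES-B, at -1.06 (-1.16 to -0.97), while its neighbours had a median of -0.03 in RES-B. SLC3A2, the shared heavy chain of several amino acid exchangers, was at 203 CPM in LNCaP and 147 to 172 in the others, within 1.5-fold. SLC38A2, a sodium-coupled neutral amino acid transporter, was highest in RES-B at 67.7 CPM and lowest in LNCaP-ENZ48 at 40.0. Its log2 ratio in RES-B was 0.39, beside a neighbour median of 0.30. SLC7A5, the light chain that pairs with SLC3A2, was at 2.49 to 6.23 CPM, and its level is uncertain because near-identical copies elsewhere in the genome could take its reads.

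The 12 synthetases of the program summed to 1745 CPM in LNCaP, to 1628 CPM in LNCaP-ENZ48, and to 1587 and 1907 CPM in RES-A and RES-B, and their medians were -0.11, -0.33 and 0.02 against LNCaP. AARS (ENSG00000090861, chr16:70251983-70289707 on the minus strand), which loads alanine, was at 131 CPM in LNCaP (127 to 134) and 120 in LNCaP-ENZ48 (117 to 123), against 46.9 in RES-A (45.1 to 48.7) and 131 in RES-B (128 to 135). RES-A thus stood apart from 3 libraries that lay close together. AARS was 2.78-fold lower in RES-A, at -1.48 (-1.54 to -1.41), and 2.80-fold above that level in RES-B, at 1.49 (1.42 to 1.55). The median log2 ratio in RES-A of the 50 genes nearest to AARS was 0.17, so that the lower level was not seen in its neighbours.

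IARS and YARS, for isoleucine and tyrosine, were likewise lowest in RES-A, by less. IARS was at 122 CPM in LNCaP and 106 in LNCaP-ENZ48, against 73.3 in RES-A and 120 in RES-B, and its neighbours had a median of -0.47 in RES-A beside its own -0.74. YARS was at 71.2 CPM in LNCaP and 59.5 in LNCaP-ENZ48, against 52.7 in RES-A and 87.0 in RES-B. Its ratio for RES-B over RES-A was 0.72, beside a neighbour median of 0.37. Against LNCaP it was -0.43 in RES-A and 0.29 in RES-B, beside neighbour medians of 0.003 and 0.34. SARS, for serine, had a ratio of 0.60 for RES-B over RES-A, beside 0.41 for its neighbours, and of -0.53 in RES-A beside 0.11. SARS was at 155 CPM in RES-A against 209 to 235 in the other libraries. TARS, for threonine, went the other way and was at 254 CPM in RES-A against 164 to 193, and EPRS, which loads glutamate and proline, was at 400 CPM in RES-A and 488 in RES-B against 291 to 312. EPRS was 1.57-fold higher in RES-B, where its 50 neighbours had a median of 0.51 beside its own 0.65. CARS and NARS, for cysteine and asparagine, were lowest in RES-A within 1.5-fold, at 42.7 to 62.6 and 160 to 216 CPM, with ratios of -0.55 and -0.43 beside neighbour medians of -0.33 and -0.46. WARS, for tryptophan, was higher in both resistant lines, at 29.9 and 29.0 CPM against 21.1 to 21.2. MARS, LARS and GARS varied little, at 41.1 to 50.1, 169 to 187 and 157 to 185 CPM.

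The 8 cytosolic synthetases outside the program formed a comparison list of the same enzyme class. In RES-A their median was 0.36, with an order-statistic interval from -0.04 to 0.66 and 7 of the 8 above 0. The 12 members had a median of -0.33, with an interval from -0.55 to 0.36 and 3 above 0. Genes are not replicates, so that these intervals cannot decide whether the lists differed. In RES-B the medians were 0.24 for the others and 0.02 for the members. In LNCaP-ENZ48 they were -0.07 and -0.11. Of 17 mitochondrial synthetases, 10 had a mean of at least 10 CPM, with medians of -0.09, -0.02 and 0.32 in LNCaP-ENZ48, RES-A and RES-B.

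Other reported ATF4 targets were 20 genes that are no members, of which 15 had a mean of at least 10 CPM. The medians of these 15 were -0.31, -0.66 and -0.10 in LNCaP-ENZ48, RES-A and RES-B. By the 1.5-fold rule, 0 of 16 tested were higher and 4 lower in LNCaP-ENZ48, against 0.927% and 3.73% of all genes. In RES-A 2 of 16 were higher and 9 lower, against 12.9% and 12.7%. In RES-B 5 of 18 were higher and 5 lower, against 15.6% and 9.11%, and the highest ratio was 1.06. The list thus did not move in 1 direction in RES-B. GDF15, a secreted stress cytokine, carried most of the UMIs of the 20 genes in LNCaP and LNCaP-ENZ48. It was at 3877 CPM in LNCaP and 2278 in LNCaP-ENZ48, against 322 in RES-A and 289 in RES-B. SLC7A11, the cystine importer, was at 170, 96.3, 44.7 and 69.1 CPM in the same order, and EIF4EBP1, a restraint on translation, at 411, 331, 235 and 164. Of 14 genes for eIF2 and its kinases, 12 passed the same mean, with medians between -0.06 and 0.09. However, EIF2AK4, the kinase that senses uncharged tRNA, was at 114 CPM in LNCaP and 77.8 in LNCaP-ENZ48, against 51.0 in RES-A and 60.6 in RES-B. Chaperones of the endoplasmic reticulum, which belong to another arm of the unfolded protein response, showed a different order. Their median was 0.06 in LNCaP-ENZ48 and -0.06 in RES-A, but 1.01 in RES-B, against -0.07, 0.02 and 0.11 over all genes. In RES-B 10 of 12 were higher, against 15.6% of all genes, and HSPA5 was at 988 CPM against 250 in LNCaP. Immediate early and heat shock genes can respond to handling. Of these 10 genes, the 6 that passed the same mean had medians of -0.01, 0.61 and 1.20 in the 3 comparisons. Their part in the differences above was not tested.

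To determine whether the program varied as a unit among cells of 1 library, each cell was thinned to 5000 UMIs, and Pearson's r of ln(1 + UMIs) was computed over cells for the 22 members at 50 CPM or more in every library. These r are descriptions over cells of 1 library that share depth and cell cycle, and in counts this sparse a single weak r is no finding. The median over the 231 member pairs was 0.0797 in LNCaP and 0.103 in LNCaP-ENZ48, against 0.0965 in RES-A and 0.102 in RES-B. Without thinning, with UMIs scaled to 10000 per cell, it was 0.276, 0.229, 0.194 and 0.192 in the same order, so that the order of the libraries turned and is not read here. Over all 1825005 pairs of the 1911 genes at that level it was 0.00133 to 0.00193. Member pairs with r above 0.1 made up 39.0%, 51.9%, 48.9% and 51.1% of the 231 in the same order, against 0.379% to 0.546% of all pairs. The r values were small, and their median stood above that of all pairs in every library, in a comparison that was not matched on level.

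PSAT1 and GARS were among the closest pairs, with r of 0.202 in LNCaP and 0.222 in LNCaP-ENZ48, against 0.243 in RES-A and 0.224 in RES-B. TRIB3 was close to ATF4, at 0.187 to 0.212, to PSAT1, at 0.186 to 0.232, and to DDIT3, at 0.169 to 0.286. Within roles, the transcription factor pairs had medians of 0.12 to 0.155, the synthesis enzymes 0.0997 to 0.154 and the synthetases 0.0481 to 0.0789. The pairs that joined different roles thus included some of the closest.

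**Figure D3:**
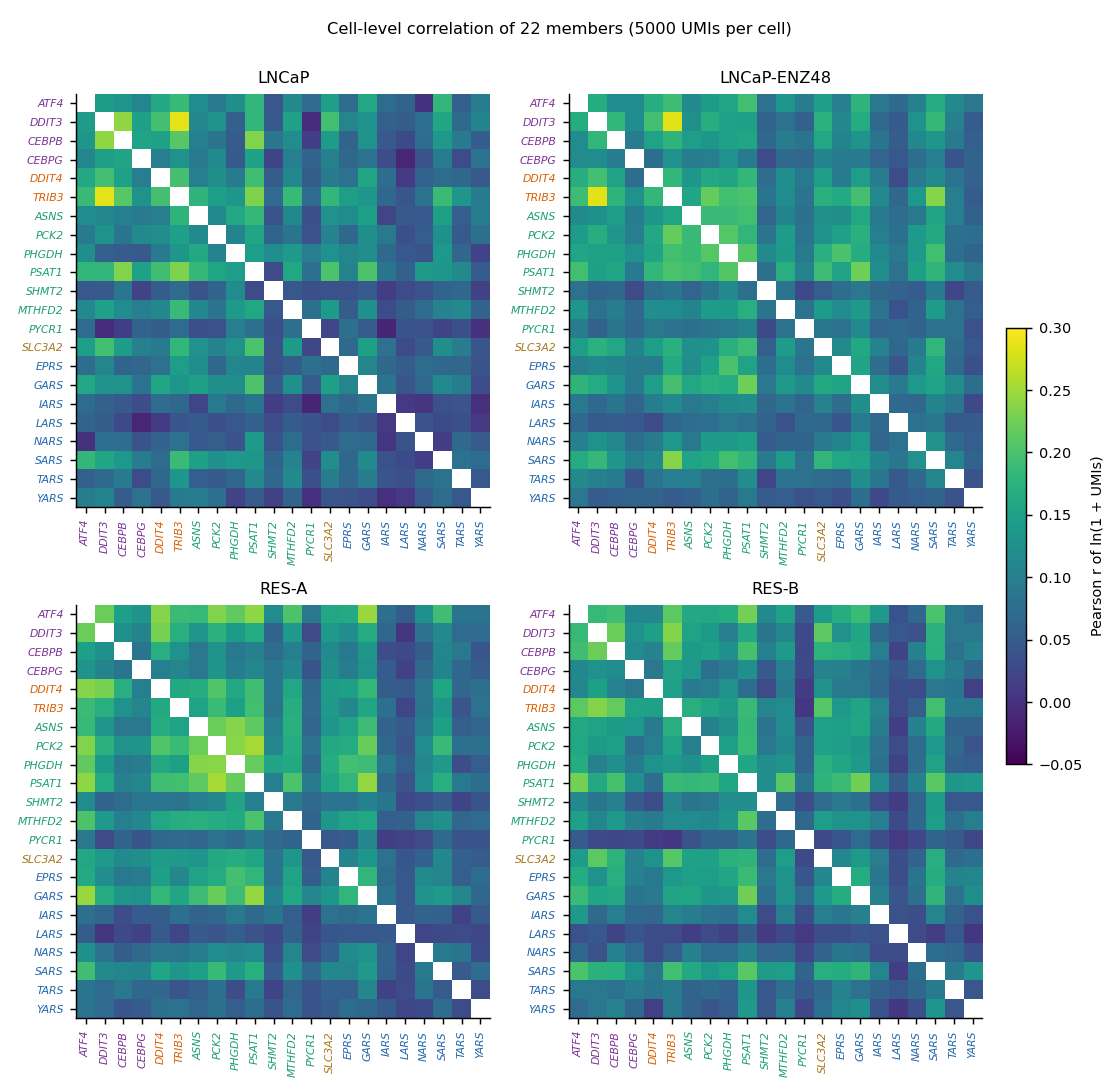
Pearson's r over cells for the 231 pairs of the 22 members at 50 CPM or more, as 1 square matrix per library with members ordered by role. The median over pairs lies between 0.0797 and 0.103, and the brightest cells include PSAT1 with GARS and TRIB3 with ATF4, PSAT1 and DDIT3.

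Against the summed UMIs of the others among these 22 members, PSAT1 had r of 0.383 to 0.394 over the libraries, ATF4 0.315 to 0.418, TRIB3 0.296 to 0.394, GARS 0.310 to 0.385 and PHGDH 0.273 to 0.383. The median of the 1911 genes was 0.00760 to 0.0170. These members thus varied with the rest of the list, and other members followed it little. The list was chosen with earlier results of these data known, so that these r are no independent support for its label. LARS, at 169 to 187 CPM, had r of 0.081 to 0.152, and among members below 50 CPM in at least 1 library, where few UMIs limit r, SLC38A2 had 0.049 to 0.091, VLDLR 0.005 to 0.038 and ALDH18A1 -0.014 to 0.003. AARS, which was low in RES-A, also had its lowest r there, at 0.052 against 0.121 to 0.249 in the other libraries, and the part of its lower count in this was not tested. Among the 1889 non-members, those whose lowest r over the 4 libraries was highest included EIF1, a start codon selection factor, at 0.358 to 0.459, RNF187 at 0.315 to 0.435, NUPR1, a stress-induced chromatin protein, at 0.291 to 0.341, and EIF4EBP1 at 0.274 to 0.328. Ordered by the highest of the 4 values, the 10 lowest genes were all ribosomal protein genes, led by RPL3 at -0.227 to -0.175.

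The synthetases were then read against the summed 14 members at 50 CPM or more that are no synthetases. The 12 member synthetases had a median r of 0.132 in LNCaP and 0.193 in LNCaP-ENZ48, against 0.132 in RES-A and 0.149 in RES-B, and the 8 other cytosolic synthetases had -0.00441, 0.0162, 0.0101 and -0.0267. The lowest member was above the highest of the others in each library, at 0.0799 against 0.0454 in LNCaP, 0.0646 against 0.0281 in LNCaP-ENZ48, 0.0461 against 0.0391 in RES-A and 0.0722 against 0.0396 in RES-B. At similar counts, MARS, at 41.1 to 50.1 CPM, had r of 0.0882 to 0.150, whereas QARS, at 46.6 to 55.5 CPM, had -0.0414 to -0.00761. Both lists hold enzymes of the same kind of reaction, and these r are weak. They were computed over cells of all phases and not within G1. The member synthetases were chosen with earlier results of these data known, so that the split is not independent of them. Of the other reported ATF4 targets, GDF15 had r of 0.0580 in LNCaP and 0.238 in LNCaP-ENZ48, against 0.313 in RES-A and 0.347 in RES-B, and SLC7A11 had 0.254 to 0.332 throughout.

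**Figure D4:**
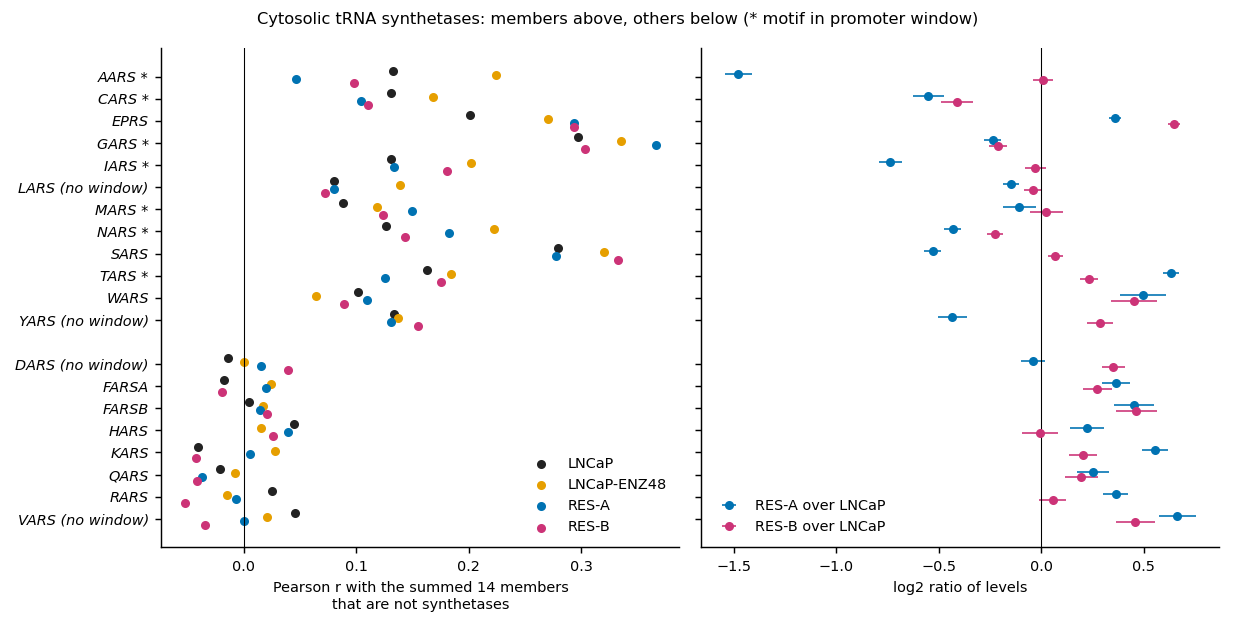
The 12 member synthetases (above) and the 8 other cytosolic synthetases (below), with Pearson's r over cells with the summed 14 other members on the left, 1 point per library, and log2 CPM ratios of RES-A and RES-B to LNCaP with 95% counting intervals on the right, where an asterisk marks a motif match. Every member lies to the right of every other synthetase of the same library in the left panel, and AARS lies at -1.48 in RES-A in the right panel.

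To give the size of this covariation, the cells of each library were ordered by the summed UMIs of the members outside the role being read and divided into 10 groups of equal size. From the lowest to the highest group, the transcription factors went from 425 to 1300 CPM in LNCaP, 312 to 1109 in LNCaP-ENZ48, 311 to 1138 in RES-A and 304 to 1272 in RES-B. The log2 ratios of highest over lowest were 1.61, 1.83, 1.87 and 2.06 for the transcription factors, 1.70, 1.86, 1.92 and 1.71 for the stress effectors and 1.31, 1.55, 1.49 and 1.20 for the synthesis enzymes. Transporters gave 1.49, 1.81, 1.48 and 1.72 and synthetases 1.08, 1.35, 1.10 and 1.07. Each role thus followed the rest of the program in each library, by at least 1.07 on the log2 scale, and the synthetases followed it least in 4 of 4. With cells ordered by all 36 members, the other cytosolic synthetases gave 0.18, 0.15, 0.14 and -0.06, endoplasmic reticulum chaperones 0.25, 0.28, 0.07 and -0.08, and the median of all genes 0.05 to 0.10. The genes for eIF2 and its kinases rose more, by 0.35, 0.39, 0.48 and 0.47. Within cells called G1 the chaperones gave 0.44, 0.32, 0.10 and 0.09.

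**Figure D5:**
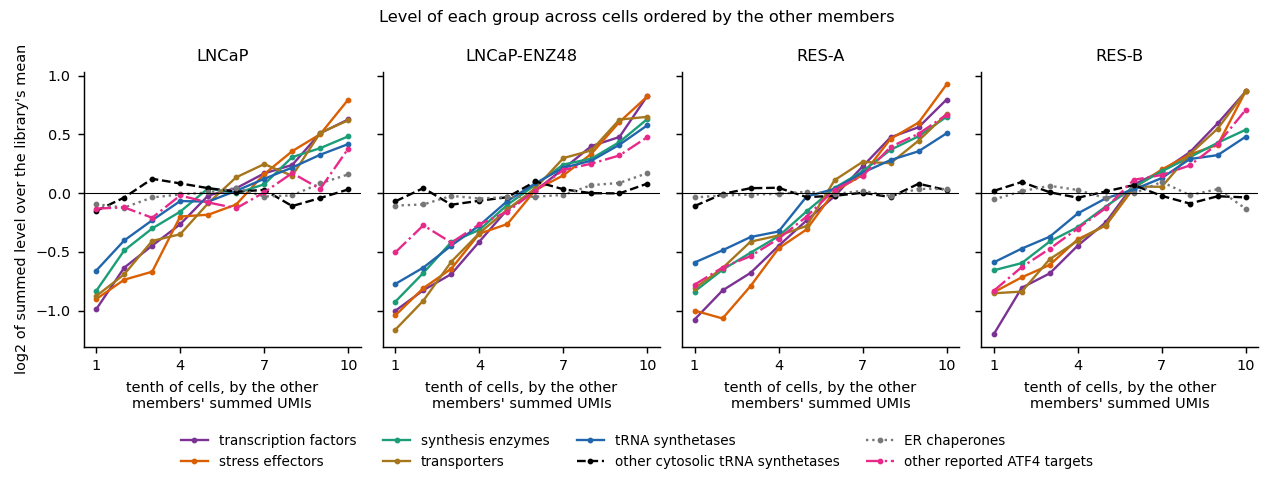
Log2 of the summed level of each role over its mean in the library, 1 panel per library, in 10 groups of cells from the lowest to the highest by the other members' summed UMIs, with 3 lists outside the program for comparison. The 5 roles climb from the lowest to the highest group in every library, as the other reported ATF4 targets do, by 0.51 to 1.54, whereas the other cytosolic synthetases stay nearly level, at log2 ratios of -0.06 to 0.18.

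Cell cycle moved with this order. Cells called G2/M made up 7.26% of the lowest group and 38.8% of the highest in LNCaP, 4.40% and 10.4% in LNCaP-ENZ48, 7.44% and 38.8% in RES-A and 1.72% and 47.8% in RES-B, for the order used for the transcription factors. Within cells called G1 alone, the transcription factors still gave log2 ratios of 1.47, 1.88, 1.97 and 2.07 and the synthetases 1.11, 1.42, 1.13 and 0.97. The median mitochondrial share was 9.58% in the lowest and 9.24% in the highest group in LNCaP, 9.64% and 9.16% in LNCaP-ENZ48, 11.1% and 9.76% in RES-A and 13.4% and 10.9% in RES-B. Median UMIs before thinning were higher in the highest group, at 24481 and 28347 in LNCaP, 11966 and 14789 in LNCaP-ENZ48, 10836 and 13344.5 in RES-A and 12186 and 13180.5 in RES-B, and the part of either in the pattern was not tested. Summed over all members, G1 cells were at 4657 CPM and G2/M cells at 6116 in LNCaP, 4383 and 4842 in LNCaP-ENZ48, 3986 and 5220 in RES-A, and 4318 and 6466 in RES-B. In G1 cells the order of the libraries for the whole program was thus LNCaP, LNCaP-ENZ48, RES-B and RES-A, while among G2/M cells RES-B was highest. Neither order was recomputed under TMM scaling, which shifted log2 ratios to LNCaP by 0.096 in LNCaP-ENZ48 and by -0.106 in RES-B. The order of 4657 and 4383 CPM in G1 and of 6466 and 6116 CPM in G2/M is therefore not firm. The part of phase in the differences between libraries was not tested beyond the values within G1.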

How the data were processed

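The deposited matrices held UMI counts per gene and cell barcode, which the authors made from 10x 3' v3 reads with Cell Ranger 3.0.2 on GRCh38. Barcodes were kept by the study's limits, in LNCaP 3000 to 7000 genes, 16000 to 50000 UMIs and under 15% mitochondrial UMIs, and in the others 1500 to 5000 genes, 5000 to 25000 UMIs and under 15%, 17% or 20%. Doublets were not removed, and leaving out the 5% of cells with most UMIs was an alternative. Counts were summed per library and scaled to a library total of 1000000 to give CPM. Intervals were exact Poisson (levels), conditional binomial (ratios) and order-statistic over genes (medians), at 95%. Cells were thinned to 5000 UMIs (seed 1) and phases were called with scanpy 1.11.5. Python 3.11.15, numpy 2.4.6, scipy 1.17.1, pandas 2.3.3, R 4.3.3, edgeR 4.0.16 and DESeq2 1.42.0 were used, the last 2 for alternative scaling only. Gene positions came from GENCODE 44, which matched 33113 of the 33538 gene IDs, and promoters from RefSeq.

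Members past 2-fold at 10 CPM or more were described in full (ATF3, TRIB3, SLC1A5 and AARS), others by counts with examples per role, other lists by at most 4 genes and non-members by the lowest (for the most positive) or highest (for the most negative) of their 4 correlations. Members, lists and comparisons were chosen with earlier results of these data known. The ratio and correlation steps were tested on simulated data.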

Additional observations from a re-analysis of the deposited data

How the results depend on the processing

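The medians over members kept their sign under all 36 alternatives, from -0.26 to -0.13 in LNCaP-ENZ48, from -0.31 to -0.25 in RES-A, from -0.30 to -0.17 in RES-B and from 0.10 to 0.22 for RES-B over RES-A. Of 64 recomputed member counts, 51 stayed within 1.5 times. Members lower in LNCaP-ENZ48 (3) came to 0 in G1 cells and 1 under DESeq2 size factors. The member higher in RES-A (1) was lost (0) after thinning to 5000 UMIs and under TMM. The member higher in RES-B (1) was lost (0) in G1 cells, under TMM and under DESeq2 size factors, and a minimum of 1 CPM gave 2. Members lower in RES-B than in RES-A (0) came to 1 with all barcodes, 1 with a single filter for all libraries, 3 in G1 cells, 2 under TMM and 2 under DESeq2 size factors. The counts behind the lower members of RES-A stayed at 9 to 10 and those of RES-B at 3 to 5. TMM shifted all log2 ratios by 0.096 in LNCaP-ENZ48 and by -0.053 and -0.106 in RES-A and RES-B, so that ratios nearer to 0 than this have no firm direction, AARS in RES-B among them. The median r over member pairs was 0.0859 in RES-B within G1, 0.276, 0.229, 0.194 and 0.192 with UMIs as deposited scaled to 10000 per cell, and 0.0556, 0.0766, 0.0698 and 0.0677 with a minimum of 20 CPM, each given for LNCaP, for LNCaP-ENZ48, for RES-A and for RES-B. The cause of these changes was not tested. No paired analysis was possible because each group is 1 library and the values come from no test.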
